A study of Mus musculus with 16 samples.

Results

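The comparison sets mouse neural crest stem cells primed towards autonomic neurons against the same kind of cells primed towards mesenchyme. It rests on 8 arrays of the 16 in the series, the 4 titled Autonomic and the 4 titled Mesenchymal, chosen by title alone. The remaining arrays, 4 of unprimed cells and 4 of glia-primed cells, entered the model that estimates the spread and the choice of a probe set per gene. The unprimed arrays also give the level without priming, with its own test, and the glia-primed arrays are mentioned once for their position. All cells were primary mouse material of neural crest origin, grown in a medium for crest stem cells, and the primed groups had been exposed to instructive growth factors. The sources used here give neither genotype, strain and embryonic age nor the factors, their doses and the duration of exposure. Nothing states that the replicates were separate cultures or embryos, so p-values reflect the spread among these arrays alone. Xist, a transcript of female cells, measured 3.15, 10.39, 7.55 and 10.58 on neuron-primed arrays. On mesenchyme-primed arrays it measured 10.17, 2.68, 11.22 and 8.96. The arrays of a group were therefore not all repeats of the same RNA sample, though how far they were independent is unknown.

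Neural crest cells leave the dorsal neural tube and form autonomic and sensory neurons, peripheral glia, pigment cells and, in some regions, smooth muscle and connective tissue. Bone morphogenetic proteins are known to direct cultured crest stem cells to autonomic neurons, and transforming growth factor beta is known to direct them to smooth muscle. Which factor was given to which group is not stated in the labels. The names neuron-primed and mesenchyme-primed are therefore those of the labels.

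Values are log2 intensities, and the median probe set of an array lay between 3.05 and 3.15 across the 8 arrays. Correlations between arrays were 0.899 to 0.950 within the neuron-primed group, 0.930 to 0.953 within the mesenchyme-primed group and 0.904 to 0.949 between them. Neuron-primed replicate 1 stood apart from its group. On the first principal component of the 8 arrays, which held 22.9% of the variance, it lay at -47.09, whereas the other neuron-primed arrays lay between 28.88 and 73.33 and the mesenchyme-primed arrays between -41.08 and -11.45. Neuron-primed replicate 4 stood apart on the second component (16.9%). It lay at 62.82, the other neuron-primed arrays between -56.64 and -8.26 and the mesenchyme-primed arrays between -6.03 and 28.00. Mean correlations with the other neuron-primed arrays were 0.914, 0.935, 0.928 and 0.916 for replicates 1 to 4. Counts of the gene lists that changed without neuron-primed replicate 1 are given both ways. The ratio of 3' to 5' Gapdh control probe sets, a measure of RNA integrity, was 2.53 to 3.10 (log2) on neuron-primed and 2.66 to 3.13 on mesenchyme-primed arrays. The same ratio for actin was -0.92 to -0.29 and -0.40 to -0.08. The controls thus gave different readings, and RNA integrity cannot be judged from either alone.

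Of 18194 genes tested, 63 differed between the groups at an adjusted p under 0.05 in limma, with 25 higher and 38 lower in neuron-primed cells. That is 0.346% of genes in either direction, 0.137% higher and 0.209% lower. All 63 had arrays that did not overlap between the groups, as did 759 genes in all (4.17%). The largest called falls outside the gene lists were in Cers4 (-4.08, adjusted p = 0.0145) and Ccdc25 (-3.94, adjusted p = 0.0321). Their calls were lost in 3 and 6 of the 8 fits that left out an array. Ccdc25 lay at 0.92 to 1.16 on neuron-primed arrays, below the array median. The called rises ran from 0.92 to 5.41 on the log2 scale and the called falls from -0.81 to -4.95, against a median difference of 0.01 over all genes. With arrays centred on housekeeping genes, which moved that median to 0.16, 71 genes were called, 38 higher and 33 lower. The count was 141 without neuron-primed replicate 1, 37 without neuron-primed replicate 2, 41 without neuron-primed replicate 4, 37 without mesenchyme-primed replicate 1 and 36 without mesenchyme-primed replicate 2. A total of 17 genes kept their call under all alternatives that tested them: Adcy6, Ak4, Bnip3, Cpm, Dhrs3, Idh1, Idi1, Insig1, Mef2c, Mvd, Mycn, Ngfr, Nsdhl, Pdk1, Scd1, Sqle and Vat1l.

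**Figure D1:**
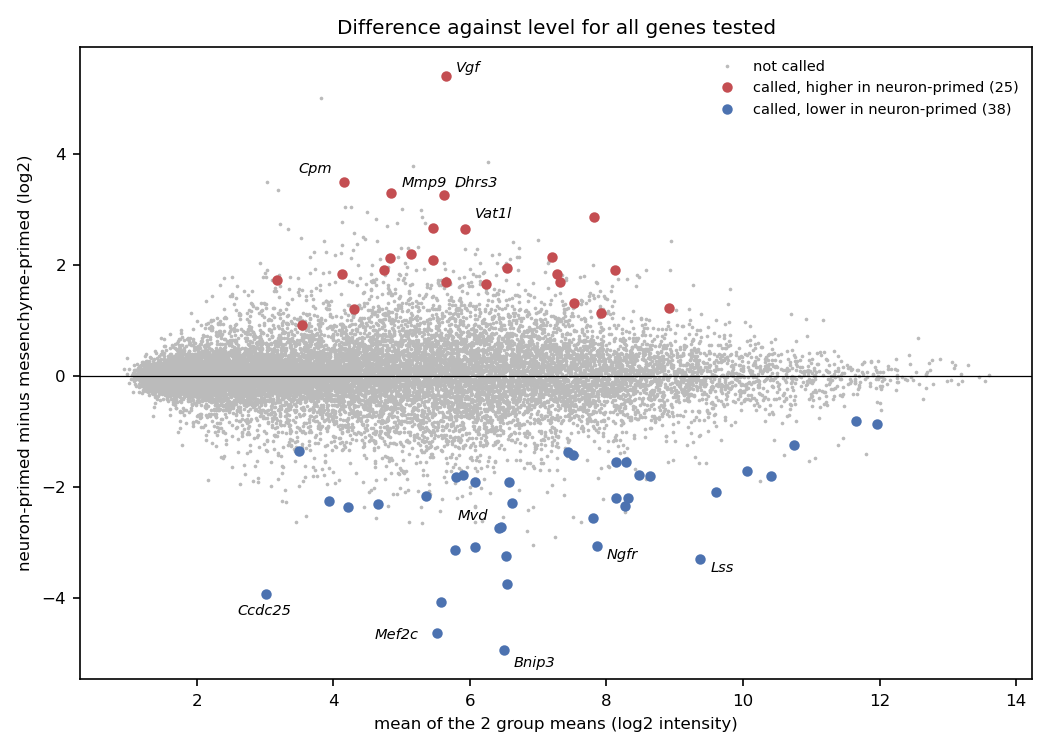
Difference between neuron-primed and mesenchyme-primed group means (log2, vertical axis) against the mean of the 2 group means (log2 intensity, horizontal axis) for 18194 genes. Red points are the 25 genes called higher and blue points the 38 called lower in neuron-primed cells, with Vgf at 5.41 and Bnip3 at -4.95 at the ends.

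The list with the most called genes was that of cholesterol synthesis, the pathway from acetyl-CoA through mevalonate, squalene and lanosterol that is switched on when cell sterol is low. Of its 19 measured genes 8 were called, all lower in neuron-primed cells, against 0.209% of all genes called lower. For 15 of the 19, neuron-primed arrays were lower without overlap, against 379 of all 18194 genes. The median difference of the list was -1.81 and all 19 differences were negative. Without neuron-primed replicate 1, 12 were called and the median was -1.99, and with housekeeping centring 7 were called and 1 difference was positive, at 0.01. The list had been chosen with earlier results of these data known.

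Mvd, mevalonate diphosphate decarboxylase, measured 5.23, 5.22, 5.40 and 4.37 on the neuron-primed arrays and 7.44, 8.23, 7.65 and 7.89 on the mesenchyme-primed arrays. The groups lay far apart, with a difference of -2.75 (SE 0.24, adjusted p = 0.000185, n = 4 in each group), or 6.71-fold lower. Unprimed arrays, at 8.56 to 8.80, lay above both groups, and Mvd differed from unprimed by -3.59 in neuron-primed cells (adjusted p = 7.39e-06) and by -0.84 in mesenchyme-primed cells (adjusted p = 0.368). Idi1, isopentenyl-diphosphate isomerase and the next enzyme, measured 10.06, 9.19, 9.47 and 9.34 on neuron-primed arrays and 11.12, 11.52, 11.36 and 11.30 on mesenchyme-primed arrays. Its difference was -1.81 (SE 0.26, adjusted p = 0.0053), with neuron-primed replicate 1 the closest to the other group.

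Further down the pathway, Sqle, squalene epoxidase, lay at 7.16 to 7.81 on neuron-primed and 8.95 to 9.21 on mesenchyme-primed arrays, a difference of -1.56 (SE 0.21, adjusted p = 0.00378). Lss, which closes the sterol ring to give lanosterol, measured 8.29, 6.27, 9.13 and 7.17 on neuron-primed arrays and 10.96, 11.32, 10.57 and 11.24 on mesenchyme-primed arrays. The neuron-primed arrays were spread over more than the mesenchyme-primed ones but stayed below all of them, and the difference was -3.31 (SE 0.47, adjusted p = 0.0053). The lanosterol-processing enzymes Nsdhl, Tm7sf2 and Cyp51 were lower by -2.72 (SE 0.31, adjusted p = 0.00161), -2.29 (SE 0.39, adjusted p = 0.0177) and -1.71 (SE 0.26, adjusted p = 0.00749). Tm7sf2 lost its call in 5 of the 8 fits that left out an array, and its adjusted p ran from 0.013 to 0.0649 over the alternatives.

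Insig1, a sterol-sensing protein that holds back the activation of sterol regulatory factors and is itself one of their targets, measured 7.26, 5.74, 6.36 and 6.74 on neuron-primed arrays and 8.75, 8.93, 9.11 and 9.56 on mesenchyme-primed arrays. The difference was -2.56 (SE 0.32, adjusted p = 0.00356), with no overlap. Msmo1 and Dhcr7, also sterol enzymes, both had a difference of -2.55 and did not pass (adjusted p = 0.0686 and 0.0583). Hmgcs1, an early enzyme of the mevalonate pathway, measured 12.38 on neuron-primed replicate 1, within the mesenchyme-primed range of 12.20 to 12.77, and 10.16 to 11.17 on the other neuron-primed arrays. Without that replicate Hmgcs1, Dhcr7, Msmo1 and Sc5d were called, at -1.84, -3.02, -2.93 and -2.21. Srebf2, which encodes the main sterol regulatory factor, differed by -0.69 and Ebp by -0.14 (adjusted p = 0.804 and 0.98).

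Genes of fatty acid desaturation and of the supply of reducing power were lower as well; they were picked from the called genes after their values were seen and belong to no list. Scd1 and Scd2, stearoyl-CoA desaturases, lay at 6.85 to 7.87 and 7.79 to 9.68 on neuron-primed arrays and at 9.22 to 9.54 and 10.54 to 10.76 on mesenchyme-primed arrays. The differences were -2.21 (SE 0.33, adjusted p = 0.00724) for Scd1 and -2.10 (SE 0.35, adjusted p = 0.0177) for Scd2, whose call was lost in 6 of the 8 fits that left out an array. Idh1, the cytosolic isocitrate dehydrogenase that makes NADPH, differed by -1.81 (SE 0.24, adjusted p = 0.00378).

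**Figure D2:**
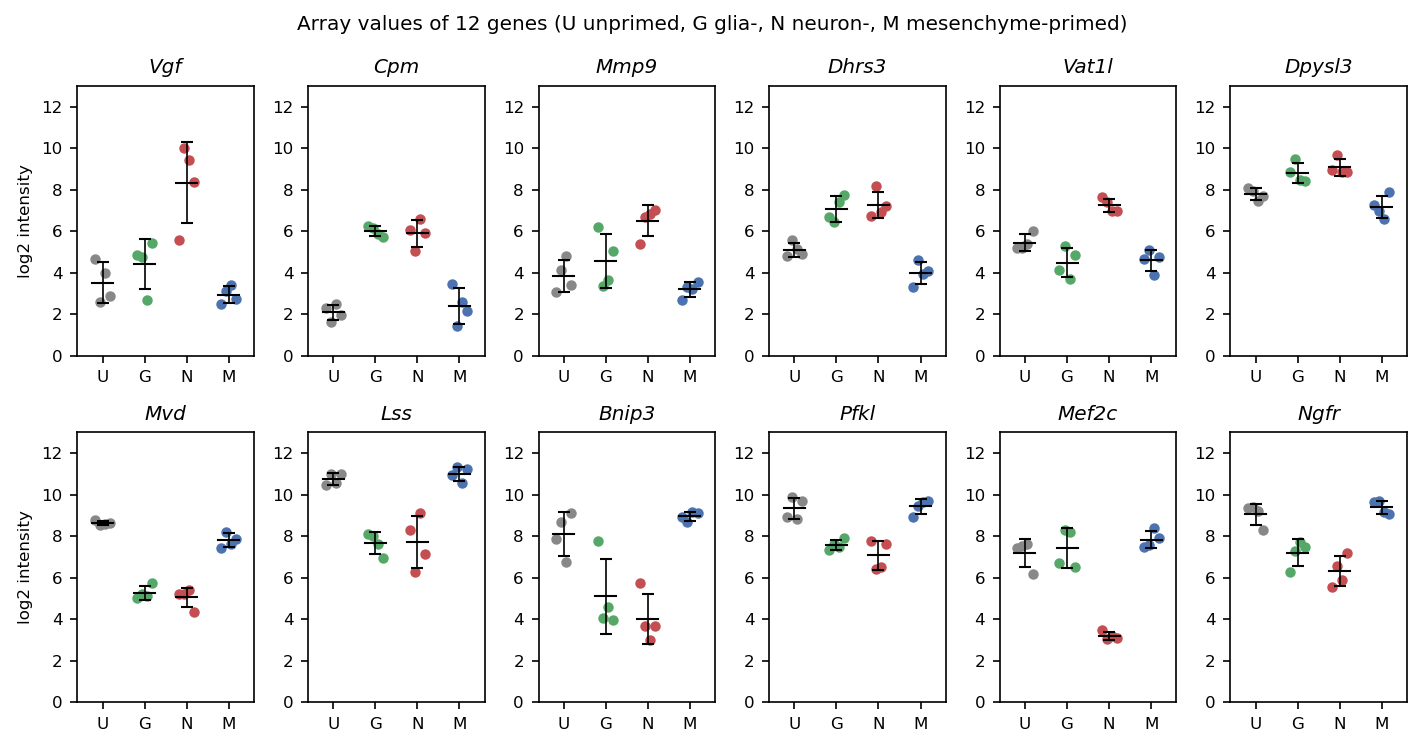
Log2 intensity of 12 genes on each array, with 4 points a group, a bar at the group mean and whiskers of 1 SD. Mvd, Lss, Bnip3, Pfkl, Mef2c and Ngfr are lower on all neuron-primed (N) than on all mesenchyme-primed (M) arrays, while Vgf, Cpm, Mmp9, Dhrs3, Vat1l and Dpysl3 are higher, and Vgf spreads from 5.57 to 9.99 in neuron-primed cells.

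Genes of glycolysis and of the response to low oxygen were the other lists with at least 3 called genes. Glycolysis turns glucose to pyruvate and lactate, and many of its enzymes are known targets of the hypoxia-inducible factors. Among 17 measured glycolysis genes 5 were called, all lower in neuron-primed cells, with a list median of -0.87 and 16 of 17 differences negative. Among 20 measured hypoxia response genes 3 were called, all lower, with a median of -0.97 and 19 of 20 differences negative. The background share called lower was 0.209%. With housekeeping centring 2 glycolysis genes and 4 hypoxia genes were called, and without neuron-primed replicate 1 the counts were 5 and 4. The housekeeping list shares Gapdh and Pgk1 with the glycolysis list, and Pgk1 was itself called lower (-0.87). Part of the glycolysis difference thus enters that centring, so the lower count under it is no independent check.

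Bnip3, a mitochondrial protein of mitophagy and a classical hypoxia target, measured 5.73, 3.66, 3.00 and 3.68 on neuron-primed arrays and 8.91, 8.68, 9.17 and 9.10 on mesenchyme-primed arrays. Neuron-primed arrays were all low, replicate 1 the least so, and the difference was -4.95 (SE 0.79, adjusted p = 0.0114), or 30.9-fold, and -5.52 without replicate 1. Pdk1, the kinase that keeps pyruvate out of the mitochondrial cycle, measured 4.55, 4.56, 4.94 and 4.05 against 8.17, 6.55, 8.36 and 7.41, a difference of -3.09 (SE 0.47, adjusted p = 0.00749). Ak4, a mitochondrial adenylate kinase, lay at 7.26 to 7.93 against 8.91 to 9.61 and differed by -1.78 (SE 0.26, adjusted p = 0.00531). P4ha1, a collagen prolyl hydroxylase, had a difference of -3.05 that did not pass (adjusted p = 0.0617), and its groups overlapped, with 7.40 on neuron-primed replicate 2 and 6.75 on mesenchyme-primed replicate 2. Vegfa, the angiogenic growth factor, differed by -0.83 (adjusted p = 0.294).

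Pfkl, the liver-type phosphofructokinase, measured 7.77, 6.44, 6.53 and 7.62 on neuron-primed arrays and 8.94, 9.44, 9.67 and 9.70 on mesenchyme-primed arrays. All neuron-primed arrays lay below, and the difference was -2.35 (SE 0.33, adjusted p = 0.0053). Slc16a3, a lactate exporter, lay at 3.51 to 5.82 against 8.21 to 8.81 and differed by -3.76 (SE 0.72, adjusted p = 0.0375). The abundant enzymes Tpi1, Pgk1 and Pkm changed less, by -1.24, -0.87 and -0.81 (adjusted p = 0.0167, 0.0267 and 0.029). The calls of Slc16a3 and Pkm were each lost in 7 of the 8 fits that left out an array, and those of Tpi1 and Pgk1 in 5. Slc2a1, the widespread glucose transporter, lay within the mesenchyme-primed range of 11.86 to 12.18 on neuron-primed replicate 1 and at 10.40 to 10.73 on the other neuron-primed arrays, and did not pass (-1.13, adjusted p = 0.341). Ldha, lactate dehydrogenase A, differed by -1.25 (adjusted p = 0.0603).

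**Figure D3:**
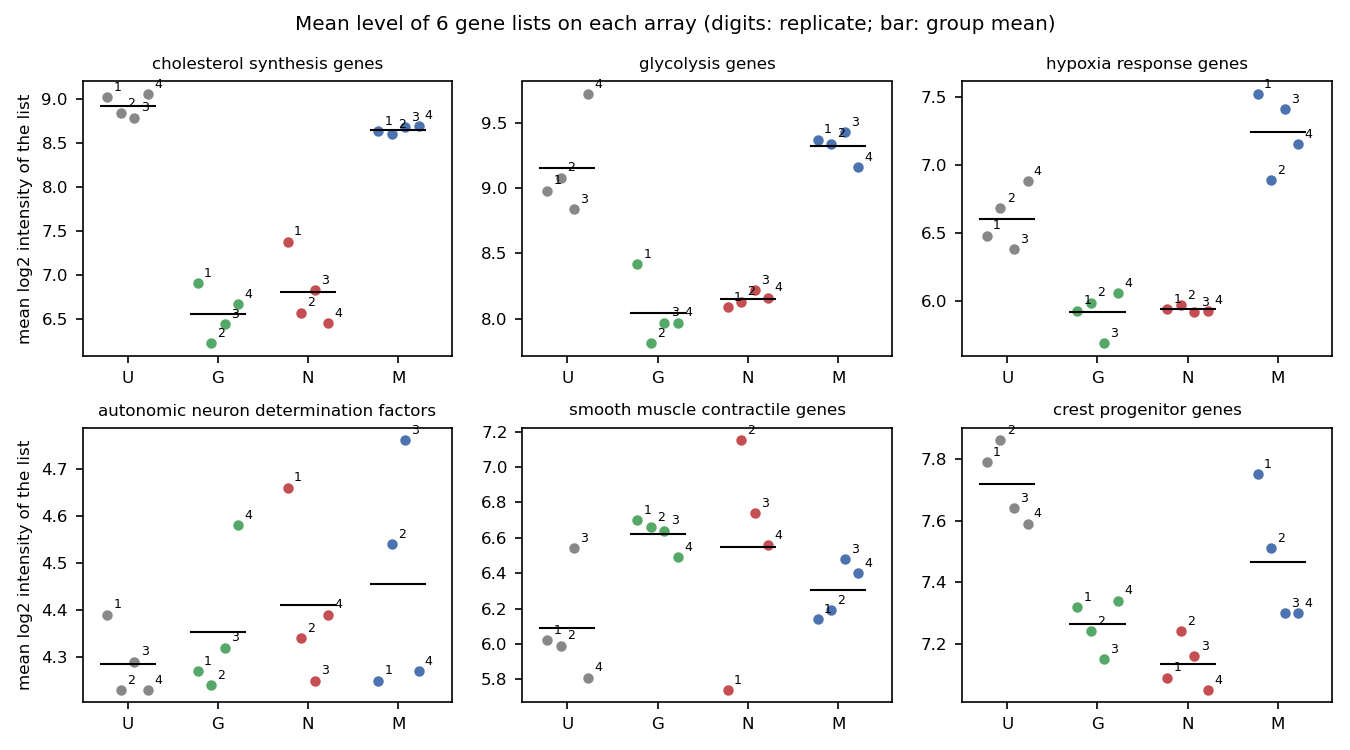
Mean log2 intensity of 6 gene lists on each of the 16 arrays, by group (U unprimed, G glia-primed, N neuron-primed, M mesenchyme-primed), with the replicate number beside each point and a bar at the group mean. For cholesterol synthesis the neuron-primed arrays lie at 6.45 to 7.38 and the mesenchyme-primed arrays at 8.60 to 8.70, whereas for the autonomic determination factors the groups overlap.

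Averaged over the list, cholesterol synthesis genes measured 7.38, 6.57, 6.83 and 6.45 on neuron-primed arrays and 8.64, 8.60, 8.68 and 8.70 on mesenchyme-primed arrays, with unprimed arrays at 8.79 to 9.06. Glycolysis genes measured 8.09, 8.13, 8.22 and 8.16 against 9.37, 9.34, 9.43 and 9.16, with unprimed arrays at 8.84 to 9.72. Hypoxia genes measured 5.94, 5.97, 5.92 and 5.93 against 7.52, 6.89, 7.41 and 7.15, with unprimed arrays at 6.38 to 6.88. In each of these lists neuron-primed arrays were below unprimed and mesenchyme-primed arrays, and for the hypoxia genes mesenchyme-primed arrays were also above unprimed ones. The unprimed arrays serve as the reference of both primed groups, so these positions are not independent.

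Promoters of the called genes of these lists, all lower in neuron-primed cells, were searched for short motifs. Sequences of 250 bases before the start site came from RefSeq (GRCm38.p6), and 7 of the 8 called cholesterol genes and all 8 called glycolysis or hypoxia genes had an entry. The core of the hypoxia response element, ACGTG or GCGTG on either strand, was present for 7 of 8 glycolysis or hypoxia genes, and also for 6 of 7 cholesterol genes, against 41.5% of the 27025 genes in the table (38.6% of promoters). The motif therefore did not set the hypoxia genes apart from the cholesterol genes. Its stricter form ACGTG was present for 5 of 8 and 1 of 7, against 18.5% of genes. The sterol regulatory element TCACNCCAC was found for none of the 7 cholesterol genes and for Pkm (1.22% of genes), and a longer form of that element for no gene of either set (0.0814%). In all 8 motif sets were searched, chosen after the values were seen. The others were TGACGTCA, TTGCATCA and CCATNTTG, with no match in either set (1.77%, 0.918% and 3.91% of genes), and CACCTG, with a match for Lss and Bnip3 (19.4%). ACGTG lies within the first set, and base composition was not matched. These are matches of letters, not measured binding. The stretches that hold the core are shown for 3 hypoxia or glycolysis genes and for 2 sterol genes, 5′ to 3′ on the strand of the gene, with capitals for ACGTG or GCGTG and their reverse complements.
Bnip3, chr7:138909522-138909638, minus strand: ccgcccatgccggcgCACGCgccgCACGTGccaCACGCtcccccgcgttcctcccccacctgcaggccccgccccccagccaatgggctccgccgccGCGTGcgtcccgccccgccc
Pgk1, chrX:106186935-106186988, plus strand: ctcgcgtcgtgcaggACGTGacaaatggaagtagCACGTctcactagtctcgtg
Slc16a3, chr11:120949025-120949066, plus strand: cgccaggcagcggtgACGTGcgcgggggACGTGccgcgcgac
Insig1, chr5:28071249-28071411, plus strand: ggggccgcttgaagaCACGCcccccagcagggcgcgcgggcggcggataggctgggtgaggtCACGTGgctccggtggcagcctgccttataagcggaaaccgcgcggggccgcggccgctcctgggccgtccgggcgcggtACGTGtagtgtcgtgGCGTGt
Mvd, chr8:122443423-122443448, minus strand: caatcatatggcagcGCGTGagtctg

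Among transcription factors, the largest called difference was in Mef2c, a MADS-box factor of muscle, crest-derived and neuronal cells. It measured 3.49, 3.06, 3.20 and 3.09 on neuron-primed arrays, near the array median, and 7.49, 7.57, 8.40 and 7.91 on mesenchyme-primed arrays. The difference was -4.63 (SE 0.42, adjusted p = 0.000185), or 24.8-fold, and the other 4 probe sets of Mef2c gave -4.14, -2.69, -1.51 and -1.03. Unprimed arrays lay at 6.18 to 7.61, so that neuron-primed cells differed from them by -3.98 (adjusted p = 0.000506) and mesenchyme-primed cells by 0.65 (adjusted p = 0.761). It was the 1 called member among 19 smooth muscle and myogenic regulators, against 0.209% of all genes called lower. Heyl, a Notch-responsive repressor on that list, lay at 4.97 to 7.87 against 8.25 to 9.32 without overlap but did not pass (-2.63, adjusted p = 0.2).

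Crest progenitor genes had 2 called members of 32, both lower in neuron-primed cells, against 0.209% of all genes called lower. The list median was -0.18. Without neuron-primed replicate 1, 3 were called lower and 1 higher, with a median of -0.42. The added genes were Crabp1, a retinoic acid binding protein (-2.05), and Nes, the intermediate filament nestin (1.66). Ngfr, the low-affinity neurotrophin receptor p75 by which crest stem cells are often isolated, measured 5.57, 6.58, 5.91 and 7.22 on neuron-primed arrays and 9.65, 9.68, 9.18 and 9.06 on mesenchyme-primed arrays. The difference was -3.07 (SE 0.39, adjusted p = 0.00356), and mesenchyme-primed cells lay near the unprimed range of 8.32 to 9.39. Its other 2 probe sets gave -1.10 and -0.33, so the size depended on the probe set. Mycn, a proto-oncogene of crest progenitors, lay at 6.67 to 7.68 against 8.74 to 9.56 and differed by -2.21 (SE 0.30, adjusted p = 0.00434).

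Sox10, the factor that maintains crest stem cells and glia, measured 4.30, 8.07, 8.27 and 8.25 on neuron-primed arrays and 8.91, 9.63, 8.50 and 8.33 on mesenchyme-primed arrays. All neuron-primed values were below the mesenchyme-primed ones, replicate 1 by the most, and the difference of -1.62 did not pass (adjusted p = 0.627). Sox8, a relative of Sox10, measured 4.55, 4.50, 2.09 and 5.71 against 7.01, 7.16, 7.95 and 7.31, a difference of -3.14 (SE 0.59, adjusted p = 0.0324) whose call was lost in 5 of the 8 fits that left out an array. Cnp, a protein of myelinating cells, had 4.28 to 6.08 against 7.27 to 9.96 and differed by -3.24 (SE 0.59, adjusted p = 0.0274), but its next brightest probe set gave -0.84, and its call was lost in 4 of those fits. It was the 1 called gene among 27 glia and Schwann cell markers, against 0.209% of all genes called lower. These markers had 3 called without neuron-primed replicate 1, with Pou3f2, a POU factor (-3.04), and Cryab (3.19) added. Yy1, a ubiquitous zinc finger factor, differed by -0.57 (adjusted p = 0.371).

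Few genes of the neuronal lineage named in the labels were called, but so were few of all genes (0.346%). At that share, short lists would hold few called genes or none. None of 13 measured autonomic determination factors was called, with a list median of 0.14, and none of 21 noradrenergic and cholinergic genes, with a median of 0.23. Phox2a, a homeobox factor of autonomic neurons, lay at 1.95 to 2.49 on neuron-primed and 1.64 to 2.16 on mesenchyme-primed arrays, all below the array median. Hand2, also an autonomic determinant, lay at 3.75 to 4.33 and 3.57 to 4.39, and Dbh, the enzyme that makes noradrenaline, at 3.63 to 4.92 and 3.73 to 4.45. Th, tyrosine hydroxylase, measured 3.86 on neuron-primed replicate 1 and 2.18 to 2.52 on the other neuron-primed arrays, against 1.62 to 2.34 (adjusted p = 0.627). Tfap2b, a brighter member of the determination list, lay at 4.74 to 7.24 and 7.14 to 7.36 (adjusted p = 0.789).

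Of 31 general neuronal genes 1 was called, against 0.137% of all genes called higher. Dpysl3, a cytoskeletal protein of growing axons, measured 8.95, 9.66, 8.86 and 8.84 on neuron-primed arrays and 7.25, 6.96, 6.61 and 7.89 on mesenchyme-primed arrays. It differed by 1.90 (SE 0.30, adjusted p = 0.0114), and its next brightest probe set gave 0.60. Map1b and Tubb3, also cytoskeletal, differed by 1.82 and 0.93 and did not pass (adjusted p = 0.129 and 0.397), though their arrays did not overlap. Celf4 had the largest difference of the list, 3.01, but its arrays overlapped and it did not pass (adjusted p = 0.341).

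Vgf, a neurotrophin-induced secretory granule peptide, was the 1 called member of 25 synaptic and granule genes and the largest rise of all. It measured 5.57, 9.99, 9.44 and 8.40 on neuron-primed arrays and 2.52, 3.11, 3.43 and 2.72 on mesenchyme-primed arrays. The difference was 5.41 (SE 0.83, adjusted p = 0.00825), or 42.4-fold, with replicate 1 well below the other neuron-primed arrays, and 6.33 without that replicate. Vgf was not called when only the 8 arrays compared were fitted (adjusted p = 0.107 in limma). Unprimed arrays lay at 2.61 to 4.67. Pcsk1n, another granule protein that was picked after its values were seen, lay at 3.62 to 4.27 against 2.93 to 3.40 and differed by 0.92 (SE 0.16, adjusted p = 0.0228). Its call was lost in 5 of the 8 fits that left out an array and under housekeeping centring. None of 22 neuronal ion channel genes was called, against 0.346% of all genes.

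The remaining large rises in neuron-primed cells were in genes of varied function. Cpm, a membrane carboxypeptidase, measured 6.07, 5.05, 6.59 and 5.91 on neuron-primed arrays and 3.45, 1.42, 2.61 and 2.15 on mesenchyme-primed arrays, a difference of 3.50 (SE 0.39, adjusted p = 0.00145). Dhrs3, which reduces retinaldehyde to retinol and is a retinoic acid target, measured 6.73, 8.17, 6.93 and 7.20 against 3.33, 4.64, 3.93 and 4.07. It differed by 3.26 (SE 0.37, adjusted p = 0.00145), with no overlap. Vat1l, a relative of a synaptic vesicle membrane protein, measured 7.63, 7.41, 6.99 and 6.98 against 4.66, 5.11, 3.88 and 4.75, a difference of 2.65 (SE 0.34, adjusted p = 0.00371). These 3 genes kept their call in every alternative that was run, and for all of them unprimed arrays lay below neuron-primed arrays.

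Tshz1, a zinc finger factor, lay at 5.93 to 8.11 on neuron-primed arrays and 3.59 to 4.40 on mesenchyme-primed arrays and differed by 2.67 (SE 0.38, adjusted p = 0.0053). Its unprimed values of 5.23 to 6.19 lay above the mesenchyme-primed arrays and reached into the neuron-primed range. Cd151, a tetraspanin bound to integrins, measured 8.32, 9.26, 10.68 and 8.78 against 6.21, 6.40, 6.89 and 6.06, a difference of 2.87 (SE 0.54, adjusted p = 0.0324), with a call that was lost in 7 of the 8 fits that left out an array. Its other probe sets gave 0.12 to 2.44. With probe sets that can match several transcripts left out, its difference was 0.12 and it was not called. Lrp10, Nsmce3 and Cdipt, a lipoprotein receptor family member, a subunit of a chromosome maintenance complex and the phosphatidylinositol synthase, rose by 2.13, 2.20 and 2.15 (adjusted p = 0.0115, 0.0401 and 0.0228). The calls of Nsmce3 and Cdipt were lost in 7 and 6 of the 8 fits that left out an array. The other probe set of Cdipt gave 0.63, and its call was lost with that set in use. Asns, asparagine synthetase, rose by 1.22 (SE 0.18, adjusted p = 0.00558). It was the 1 called gene of 22 stress response genes, against 0.137% of all genes called higher. Without neuron-primed replicate 1, 3 genes of that list were called, with the chaperones Hspb1 (3.55) and Cryab (3.19) added. Slc3a2, the heavy chain of amino acid transporters, rose by 1.70 (adjusted p = 0.0203), lost its call in 5 of those 8 fits and was picked after its values were seen.

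Few genes of smooth muscle and connective tissue were called in either direction, but so were few of all genes (0.346%). At that share, lists of this size would hold few called genes or none. None of 27 smooth muscle contractile genes was called, and the list median was 0.05. Acta2, smooth muscle actin, measured 5.91, 8.68, 7.13 and 7.47 on neuron-primed arrays and 5.20, 6.83, 9.30 and 6.71 on mesenchyme-primed arrays. Tagln, an actin-binding protein of smooth muscle, measured 7.69, 10.65, 9.70 and 10.20 against 8.41, 8.88, 8.22 and 9.18. The ranges overlapped in both genes, with differences of 0.29 (SE 0.87, adjusted p = 0.978) and 0.89 (SE 0.56, adjusted p = 0.76). Without neuron-primed replicate 1, 2 genes of the list were called, both higher in neuron-primed cells: Smtn at 2.30 and Tagln2 at 2.08.

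Against 0.346% of all genes called, collagen genes had no called member of 30 (median -0.02). Mesenchyme transcription factors had none of 37 (0.04) and mesenchyme receptors and surface proteins none of 32 (0.09). Each of the last 2 lists had 1 gene called higher in neuron-primed cells without neuron-primed replicate 1, the forkhead factor Foxc2 at 4.03 and the integrin chain Itgb1 at 2.28. Col1a1, the main fibrillar collagen chain, measured 7.21, 10.25, 9.69 and 9.25 on neuron-primed arrays and 6.91, 6.66, 11.56 and 7.16 on mesenchyme-primed arrays, so 1 array of the latter was the highest of all 8. Mmp9, a gelatinase that cuts basement membrane, was the 1 called gene of 41 matrix glycoproteins, crosslinkers and proteases. It measured 5.40, 6.71, 6.84 and 7.05 against 2.70, 3.34, 3.22 and 3.55 and was higher in neuron-primed cells by 3.30 (SE 0.57, adjusted p = 0.021), a call lost in 6 of the 8 fits that left out an array. In bulk RNA, fewer cells of a type and less RNA per cell cannot be told apart.

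**Figure D4:**
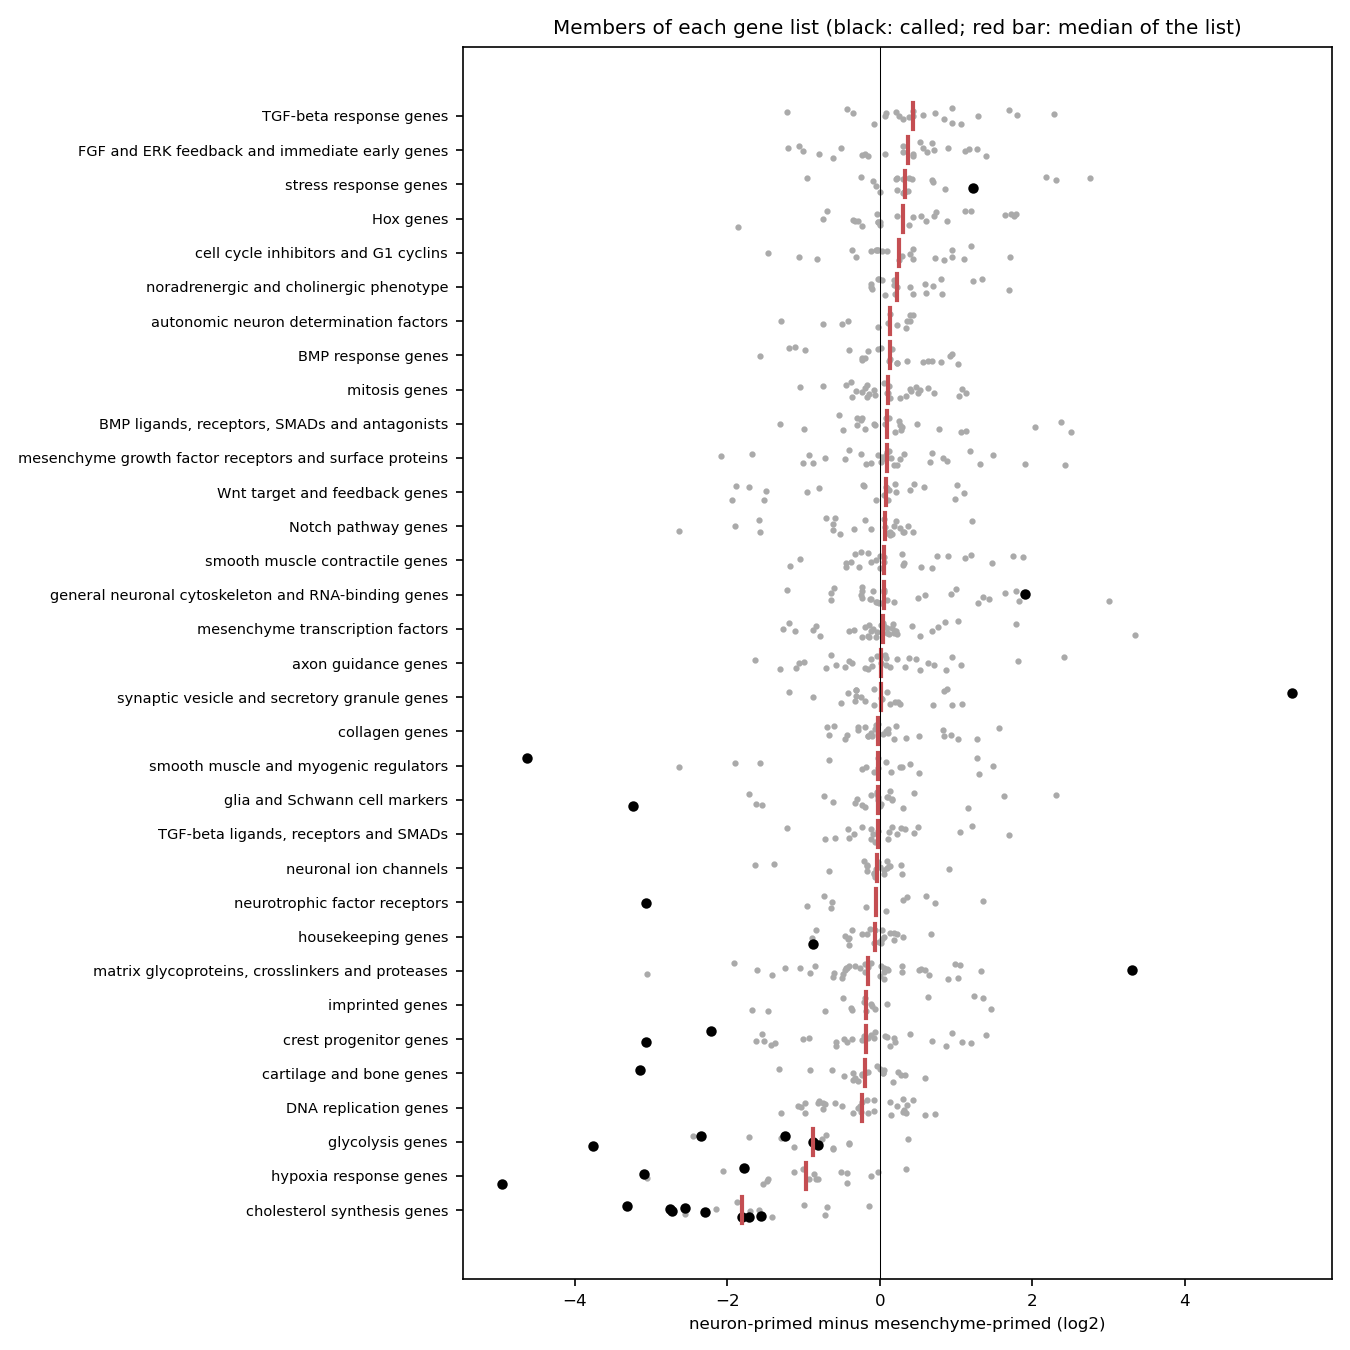
Difference between neuron-primed and mesenchyme-primed cells (log2, horizontal axis) for the members of each gene list, with lists ordered by their median (red bar). Black points are called genes, which number 8 of 19 for cholesterol synthesis, 5 of 17 for glycolysis, 3 of 20 for hypoxia and at most 2 for each other list.

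Signalling lists had no called member with all arrays, where 0.346% of all genes were called. Among 22 genes that respond to TGF-beta the median was 0.43, with 18 positive differences, and the 24 BMP response genes a median of 0.13 with 14. Tnfrsf12a, a TGF-beta and growth factor responsive receptor, measured 4.57, 8.11, 6.91 and 9.41 on neuron-primed arrays and 4.73 to 5.36 on mesenchyme-primed arrays, and did not pass (2.28, adjusted p = 0.401). It was called at 3.18 without neuron-primed replicate 1. So were the BMP ligand Bmp5 at 2.88, the Wnt modulator Sfrp2 at -2.61 and the ERK phosphatase Dusp5 at 1.55, each the 1 called gene of its list. Axon guidance and imprinted genes also had no called member with all arrays. Without that replicate each list had 1, Unc5b at 2.89 and Igf2r at 1.63. The 26 Notch pathway genes had a median of 0.06, or -0.24 without that replicate, and the 23 Wnt target genes 0.08. With all arrays neither the 30 mitosis genes (0.10) nor the 32 DNA replication genes (-0.24) had a called member.

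Set against the unprimed arrays, 79 genes were called in neuron-primed cells (0.434%) and 4 in mesenchyme-primed cells (0.0220%). Both comparisons share the unprimed arrays. Gpr17, an orphan receptor best known from oligodendrocyte precursors, was a called gene whose difference lay on the mesenchyme-primed side. It measured 2.70, 3.00, 2.26 and 3.26 on neuron-primed arrays, 4.36, 6.09, 4.78 and 5.05 on mesenchyme-primed arrays and 2.99 to 3.12 on unprimed arrays. Mesenchyme-primed cells thus differed from unprimed by 2.02 (adjusted p = 0.0465) and neuron-primed cells by -0.24 (adjusted p = 0.869), and it was picked after its values were seen. With the mesenchyme-primed mean of each called gene set to 0 and the neuron-primed mean to 1, the median position of the unprimed arrays was 0.13 to 0.28 and that of the glia-primed arrays 0.67 to 0.74, which describes the genes chosen and is no test.

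Neuron-primed replicate 1 also differed in lineage genes. Besides Sox10, it was low in Tfap2a, a crest specifier (4.39 against 7.51 to 7.70 on the other neuron-primed arrays), Tfap2b (4.74 against 7.02 to 7.24) and Erbb3, the neuregulin receptor (6.04 against 8.12 to 9.47). It was high in the neural progenitor factors Sox2 (8.53 against 4.50 to 5.30) and Zic1 (8.48 against 4.33 to 5.59). The summed intensity of 15 neural tube progenitor markers was 2094 on this array and 153.5 to 655.5 on the other neuron-primed arrays, against 216.0 to 1222 on mesenchyme-primed arrays. The sum of 12 sensory neuron markers was 1246, against 149.7 to 175.7 and, on mesenchyme-primed arrays, 133.8 to 861.3. No gene of either list was called, and their part in the differences above was not tested. Of the 8 marker lists of other cell types, which also covered skeletal muscle, endothelium, blood, epithelium, melanocytes and pluripotent cells, none had a called gene. Of 7 neural crest markers Ngfr was called, and of all genes 0.346% were called.

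Each array was then compared with the genes called without it. Of the 141 genes called without neuron-primed replicate 1, that array lay nearer to its own group's mean for 55 (39.0%) and beyond all mesenchyme-primed arrays in the called direction for 85 (60.3%). For the other 7 arrays the share nearer to their own group was 82.9% to 91.9%, over 36 to 47 genes. Of the 141 genes, 55 were among the 63 and 86 were not, 56 of the latter higher and 30 lower in the other neuron-primed arrays. Rapgef3, an exchange factor activated by cyclic AMP, had a mean of 7.97 on those arrays, 1.40 on replicate 1 and a mean of 1.32 on mesenchyme-primed arrays. Cxcr4, a chemokine receptor of migrating cells, had 4.04, 9.65 and 8.24.

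**Figure D5:**
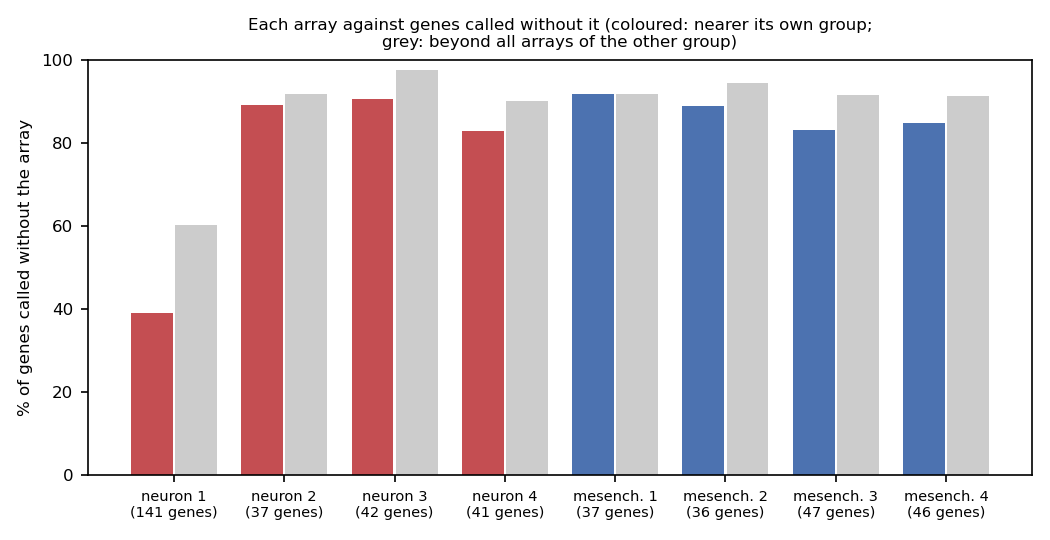
Share of the genes called without an array (percent, vertical axis) for which that array lay nearer to the mean of its own group (coloured bars) or beyond all arrays of the other group in the called direction (grey bars), with the number of genes under each array. Neuron-primed replicate 1 reached 39.0% nearer to its own group and the other 7 arrays 82.9% to 91.9%.

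For 38 of the 63 called genes another probe set was on the array. The next brightest one had the same sign for 35 of them, with an unadjusted p under 0.05 for 27, and its difference was smaller by more than a factor of 2 for 15. Fancm, Hivep2 and Ulk1 were the 3 with the opposite sign, a helicase of DNA repair, a zinc finger factor and a kinase that starts autophagy. Their next brightest probe sets gave 0.45, -0.27 and 0.31, against -1.83, 1.65 and -2.16.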

How the data were processed

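RNA of 16 mouse crest cell samples was measured on Affymetrix arrays, 4 in each of 4 groups taken from the sample titles and cell type labels. The deposited table gives 1 intensity per probe set and array, made by the authors with RMA (background subtraction, quantile normalization and probe summary), per the submitters' processing notes (version not stated). The values run from 1.487 to 31600.0 and so are on a linear scale, and log2 was taken with no offset. Scanner files were not used here. Arrays have no read depth, and their number limits the precision.

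Of 45101 probe sets, 34958 had 1 gene symbol, 932 several and 9211 none here. Symbols were updated by Entrez identifier to the RefSeq GRCm38.p6 table, which matched 99.4%. Each of 18194 genes was represented by its brightest probe set on average across the 16 arrays, and 9012 genes had several. All 16 arrays entered a model of group means in limma 3.58.1 in R 4.3.3 (lmFit, eBayes, two-sided tests, Benjamini-Hochberg over all genes, threshold 0.05). Scripts were tested on simulated data.

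The compared groups, gene lists and naming rule were chosen with earlier results of these data known. The rule names the 10 largest called differences each way with arrays that do not overlap, up to 6 called members and the 3 largest differences of each list, and always Sox10, Yy1, Acta2 and Tagln. Not all of the 113 genes so named are described above. Further genes serve as examples of a list or were picked after their values were seen. Alternatives were a replicate block, scalings, filters, probe set choices, eBayes settings, array weights, covariates and leaving out each array. List counts under the scalings and without neuron-primed replicate 1 were added after seeing the data.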

Additional observations from a re-analysis of the deposited data

Results flagged for a closer look

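In 17 of 226 groups of 4 arrays examined (113 named genes in 2 groups), 1 array lay apart from the other 3 beyond Dixon's 95% limit. Chance alone flags about 1 in 20 groups. Neuron-primed replicate 1 was the array apart for Sox10 (4.30 against 8.07 to 8.27), Tfap2b (4.74 against 7.02 to 7.24), Hey1 (8.57 against 5.35 to 5.73), Insm1 (4.54 against 2.27 to 2.42) and Lrp10 (5.04 against 6.11 to 6.26). Sox10, Tfap2b, Hey1 and Insm1 are regulators of crest or neuronal fate, and of these 5 genes Lrp10 was called. Neuron-primed replicate 2 was apart for Cenpf, a mitotic kinetochore protein (6.24 against 8.09 to 8.21), and for the called gene Dpysl3 (9.66 against 8.84 to 8.95). Neuron-primed replicate 3 was apart for Matn2, a matrix protein (4.27 against 0.98 to 1.38), and Yy1 (8.78 against 8.34 to 8.41).

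Mesenchyme-primed replicate 3 was the array apart for Col1a1 (11.56 against 6.66 to 7.16), the called gene Cers4, a ceramide synthase (8.54 against 7.24 to 7.43), Hoxb1 (4.89 against 1.54 to 1.86), Foxd1 (3.27 against 1.59 to 1.81), Tagln2 (4.32 against 6.06 to 6.21) and Tgfb2 (4.10 against 6.16 to 6.42). Mesenchyme-primed replicate 1 was apart for Ccnb2, a mitotic cyclin (5.92 against 7.06 to 7.23), and Sfrp1, a Wnt antagonist (4.86 against 7.23 to 7.50).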

How the results depend on the processing

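Against 63 genes called, the count was 26 when only the 8 arrays compared were fitted and 33 in a test against a 1.2-fold change. Of the 26 genes, 23 were among the 63. Vgf, Lss, Pfkl, Tshz1, Asns, Gpr17, Cyp51 and Dpysl3 were among the genes not called in the fit of the 8 arrays. The count ran from 36 to 141 when each array was left out. Under the other alternatives it stayed within 1.5 times the reported count, with 71 under housekeeping centring, 83 with the mean of all probe sets, 64 with Xist and 61 with the Gapdh ratio as a covariate. No called gene changed sign under any of the 22 alternatives, 17 kept their call in all that tested them and 28 in all 8 fits that left out an array. Fitted with a replicate block, 46 genes were called, 41 of them among the 63. The replicate numbers showed no sign of pairing. Same-numbered arrays had residual correlations over all genes of 0.03, -0.04, -0.06 and -0.02, and differently numbered ones -0.09 to 0.09. A pairing that touches few genes could go unseen in such correlations, and the labels state none. The causes of these changes were not tested. Fits that leave out arrays also use fewer of them, and that part was not separated. How far a probe set lay above background is unknown, which leaves differences with 1 group near the array median (3.05 to 3.15) imprecise.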
